A study of Mus musculus with 15 samples.

Results

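Bone marrow-derived macrophages (BMDM) were set against progenitor cells in 6 mouse RNA-seq libraries, 3 of each, out of 15 libraries in the series. The libraries were chosen by their labels alone and every gene of the table was considered, which gave 17030 genes, of which 11793 reached the minimum level for testing. The labels describe BMDM as primary macrophages and the progenitor cells as primary progenitors. Bone marrow was the tissue, wild type the genotype and untreated the treatment given for both groups. The other 9 libraries, 3 each, were Hoxb8 macrophages (wild type, untreated), CAR macrophages and control-CAR macrophages, CAR being read here as chimeric antigen receptor. The labels give no strain, age, growth factor, time in culture or transgene for BMDM or progenitor cells. Nor do they tell separate animals or cultures from repeats of 1 preparation. The p-values therefore measure only the spread between libraries, which may be technical and which the gene tests pooled over all 15.

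Macrophages arise from dividing myeloid progenitors when signals such as macrophage colony-stimulating factor, acting through the receptor Csf1r, raise lineage transcription factors including Spi1, Irf8 and the Maf family. As cells mature they usually leave the cell cycle and build up lysosomes, phagocytic receptors and innate immune sensors. Hoxb8 is a homeobox transcription factor that holds myeloid progenitors in an immature, dividing state when it is forced on, and in common laboratory systems it is fused to the hormone-binding part of the estrogen receptor so that estrogen controls it. Early progenitors already carry the primary (azurophil) granule genes, while the later granule genes mark the last steps towards neutrophils.

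Most genes differed between BMDM and progenitor cells. Of the 11793 tested genes, 10294 (87.3%) were called at an adjusted p under 0.05 (edgeR quasi-likelihood, Benjamini-Hochberg). Genes named below passed this test unless they are said not to have been called. In BMDM 5497 genes (46.6%) were higher and 4797 (40.7%) were lower, and the median change over the tested genes was 0.1 on the log2 scale. A change of at least 4-fold was found for 3244 genes (27.5%), of which 2310 (19.6%) were higher and 934 (7.92%) were lower in BMDM. The FPKM values (reads scaled for gene length and library size) of the 3 BMDM and the 3 progenitor libraries did not overlap for 10666 tested genes (90.4%). Because so many genes were called, each count of called genes below is to be read against these shares, and sizes carry more than calls. Genes with no count in progenitor cells entered the test through macrophage libraries and could not be called lower in BMDM. In lists with many such genes the count of rises carries little. A level of 10 FPKM or more was reached by 5859 genes in BMDM and by 6900 in progenitor cells, of which 4842 were shared. At that level in BMDM, 163 genes had a count of 0 in all 3 progenitor libraries. The reverse was true of 3 genes, Hoxb8, Limch1 and Tpd52l1.

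The library totals were close, at 18752383 to 19221685 estimated counts in BMDM and 17505928 to 17964459 in progenitor cells, but their make-up was not. The 10 genes with the highest counts took 10.9% ± 0.198 of a BMDM library and 3.89% ± 0.0915 of a progenitor library (SD, n = 3 each; two-sided exact permutation test, p = 0.1, the smallest that 3 against 3 allows). Genes with any count numbered 14428 ± 88.6 in BMDM and 12559.7 ± 34.6 in progenitor cells, with the same exact permutation p of 0.1. The TMM factors, which correct for such make-up, were 0.897 to 0.961 in BMDM and 1.46 to 1.47 in progenitor cells. With library totals in their place the median log2 change of all genes moved by -0.66, and 3762 genes were called higher and 6959 lower. The split was 3694 higher and 6956 lower with limma on log2(FPKM + 1), 3739 and 6940 with log2(FPKM + 0.1), 3454 and 7271 with log2(TPM + 1), and 4351 and 6181 after quantile normalisation. A small change in the model can therefore stand beside FPKM levels that point the other way, and the call or direction of Ccnd1, Ccnd3, E2f1, Elane, Gapdh and Mthfd2 changed with the scaling. Calr, Cxcr4, Gaa, Hk1 and Tgfb1, which were not called, were called lower with library totals, at log2 changes of -0.66 to -0.76. The larger of the 2 directions was the same under every scaling for each gene list described here except the erythroid and endothelial lists. Where another scaling moved the share of rises among a list's calls by over 10 percentage points, the rises and falls under the scaling that moved it most are given in parentheses. In bulk RNA, fewer cells of a type and less RNA per cell cannot be told apart.

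**Figure D1:**
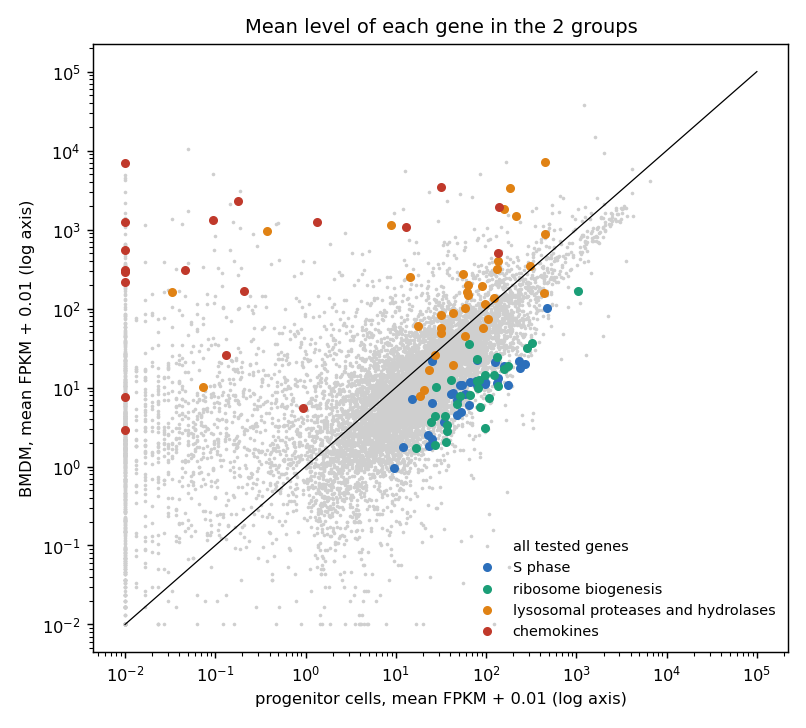
Mean FPKM + 0.01 of each tested gene in BMDM (vertical, log axis) against progenitor cells (horizontal, log axis), n = 3 libraries each, with members of 4 gene lists in colour and the line of equal levels. Chemokine and lysosomal genes lie mostly above the line, while S phase and ribosome biogenesis genes lie below it; the column at the left edge holds genes at 0 in progenitor cells.

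BMDM carried the defining markers of macrophages. Where a group had a count of 0 in every library, the change is given as a bound against 3 counts per library, and where it had 1 to 3 counts in all, as a ratio of scaled sums with an interval that covers counting error only. For genes with only a few more counts in a group, the printed SE can be smaller than the counting error. Adgre1, the F4/80 antigen (GRCm38.p6 chromosome 17, 57358581 to 57483529), was at 1429.7, 1152 and 1058 FPKM in BMDM, against 0.41, 0.53 and 0.53 FPKM in progenitor cells (log2 change 11.94, SE 0.17). Csf1r, the receptor for macrophage colony-stimulating factor, was at 461, 411 and 378 FPKM in BMDM, against 0.53, 0.5 and 0.46 FPKM in progenitor cells (log2 change 10.37, SE 0.13). Lyz2, lysozyme, was at 7350.2, 6798 and 7066 FPKM in BMDM, against 168, 171 and 155 FPKM in progenitor cells (log2 change 6.1, SE 0.084), and so was already present in progenitor cells. The groups were far apart for all 3 genes. Itgam, the CD11b integrin chain, was at 813, 726 and 651 FPKM in BMDM, against 14.5, 14 and 13.9 FPKM in progenitor cells (log2 change 6.36, SE 0.1). Cd14, the co-receptor for lipopolysaccharide, was at 3164, 3008 and 2891 FPKM in BMDM, against 25.9, 22.1 and 21.2 FPKM in progenitor cells (log2 change 7.71, SE 0.1). The list of macrophage surface and identity genes moved together: 18 of 19 tested members rose and 1 fell, with a median log2 change of 7.26, against 0.1 for all genes. The largest rise of the list was that of Gpnmb, a glycoprotein of lipid-loaded macrophages, at 1152 ± 30.4 FPKM in BMDM and 0.00667 ± 0.0115 FPKM in progenitor cells (a ratio of 337758, 95% counting interval 60620.3 to 13340778). The galectin Lgals3 was at 1050 ± 109.8 FPKM in BMDM and 0.177 ± 0.0764 FPKM in progenitor cells (log2 change 13.16, SE 0.19). Siglec1, a sialic acid receptor, was at 6.11 ± 1 FPKM in BMDM and 0 in progenitor cells (at least 399-fold higher). The member that fell was Ccr2, the chemokine receptor that carries monocytes out of the marrow, at 2.53, 3.79 and 5.18 FPKM in BMDM, against 329.6, 302 and 324 FPKM in progenitor cells (log2 change -5.71, SE 0.16).

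The progenitor cells carried the progenitor markers Kit, Flt3 and Cd34, while the stem cell markers Ly6a and Prom1, described below, were near or at 0 there. In the list of progenitor surface antigens and growth receptors 11 of 18 tested members were higher in BMDM and 7 lower. Hoxb8 itself was among the genes that set the groups apart. Hoxb8 (chromosome 11, 96279401 to 96285325) was at 0 in all 3 BMDM libraries, against 123, 122 and 121 FPKM in progenitor cells (at least 955-fold lower). Esr1, the estrogen receptor (chromosome 10, 4611989 to 5005633), was at 3.85, 4.76 and 5.74 FPKM in BMDM, against 329.7, 329 and 326 FPKM in progenitor cells (log2 change -4.31, SE 0.087). Its counts summed to 1120 in BMDM and 32611 in progenitor cells, and the model change was 19.8-fold. The FPKM levels of Esr1 thus stood further apart than its counts, and the cause was not tested. No BMDM library held a Hoxb8 count, and every progenitor library held both transcripts. The labels call both groups wild type, and whether these reads came from the native genes or from a construct was not tested. Kit, the stem cell factor receptor, was at 2.85, 4.07 and 4.27 FPKM in BMDM, against 115, 112 and 113 FPKM in progenitor cells (log2 change -4.26, SE 0.1). Flt3, another growth receptor of early progenitors, was at 3.1, 1.97 and 2.6 FPKM in BMDM, against 34.8, 35.8 and 37.8 FPKM in progenitor cells (log2 change -3.16, SE 0.13). Cd34, an early progenitor marker, was at 9.43, 9.85 and 8.65 FPKM in BMDM, against 107, 112 and 111 FPKM in progenitor cells (log2 change -2.9, SE 0.079).

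**Figure D2:**
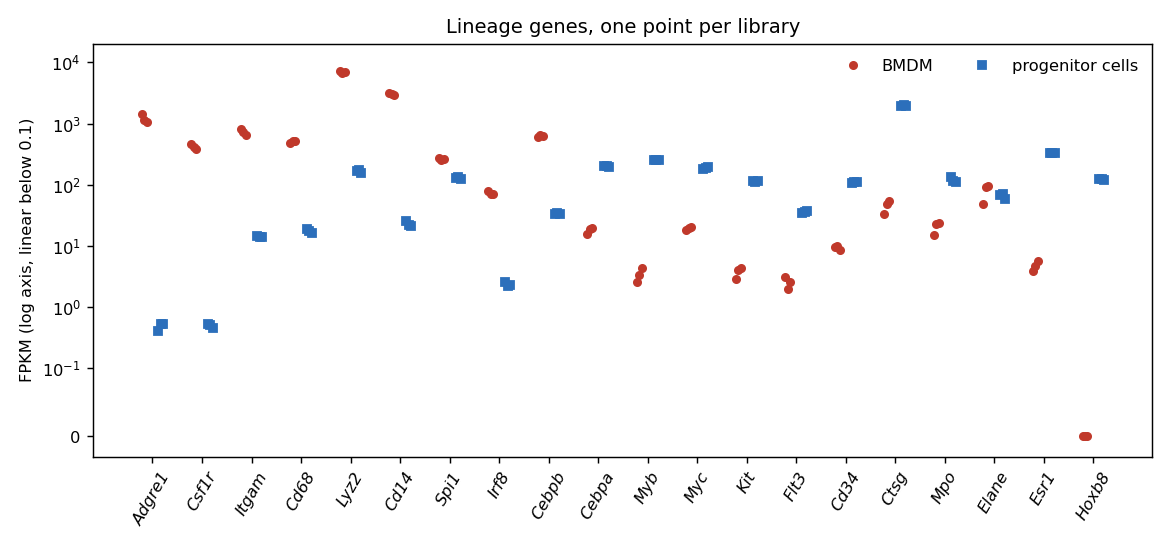
FPKM of 20 lineage genes in each library (vertical, log axis that is linear below 0.1), with BMDM as circles and progenitor cells as squares, 3 points each. The macrophage genes at the left are higher in all 3 BMDM libraries, Elane is the 1 gene whose groups overlap, and Hoxb8 is at 0 in every BMDM library.

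Transcription factors of the macrophage lineage were higher in BMDM throughout: all 19 tested members rose, with a median log2 change of 4.38. Irf8, needed for monocyte fate, was at 78.5, 70.9 and 70.4 FPKM in BMDM, against 2.61, 2.17 and 2.32 FPKM in progenitor cells (log2 change 5.62, SE 0.1). Cebpb, a factor of activated macrophages, was at 599, 661 and 636 FPKM in BMDM, against 32.7, 33.9 and 32.7 FPKM in progenitor cells (log2 change 4.93, SE 0.12). Spi1 (PU.1), which both stages need, differed less, at 272, 254 and 259 FPKM in BMDM, against 130.2, 136 and 124 FPKM in progenitor cells (log2 change 1.68, SE 0.068). Maf was at 16 ± 1.66 FPKM in BMDM and 0.00667 ± 0.0115 FPKM in progenitor cells (a ratio of 4485, 95% counting interval 804 to 177219). Klf4, a monocyte factor, was low throughout, at 1.52 ± 0.202 FPKM in BMDM and 0.00667 ± 0.0115 FPKM in progenitor cells (a ratio of 349.9, 95% counting interval 62.2 to 13877). Egr2, a zinc finger factor, was at 22.5 ± 2 FPKM in BMDM and 0.03 ± 0.0265 FPKM in progenitor cells (log2 change 10.11, SE 0.19). The lipid sensor Pparg was at 4.89 ± 0.495 FPKM in BMDM and 0 in progenitor cells (at least 74.5-fold higher). Batf3, known from dendritic cells, was at 8.6 ± 1.45 FPKM in BMDM and 0 in progenitor cells (at least 32.7-fold higher).

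Stem and progenitor factors did not all fall. In their list 9 of 26 tested members rose and 17 fell, with a median log2 change of -1.57. Myb, which keeps progenitors dividing, was at 2.52, 3.29 and 4.42 FPKM in BMDM, against 257, 249 and 258 FPKM in progenitor cells (log2 change -5.54, SE 0.14). Myc, a driver of growth, was at 18.5, 19.4 and 20 FPKM in BMDM, against 183, 185 and 195 FPKM in progenitor cells (log2 change -2.61, SE 0.059). Gfi1, a repressor that favours neutrophils, was at 1.69, 2.61 and 3.26 FPKM in BMDM, against 63.2, 65.2 and 64.3 FPKM in progenitor cells (log2 change -4.01, SE 0.13). All 3 were lower in every BMDM library than in any progenitor library. Hlf, a stem cell factor, was at 0.103 ± 0.00577 FPKM in BMDM and 52.7 ± 0.313 FPKM in progenitor cells (log2 change -8.39, SE 0.1). Meis1, a partner of Hox proteins, was at 1 ± 0.239 FPKM in BMDM and 37.8 ± 2.78 FPKM in progenitor cells (log2 change -4.6, SE 0.094). Cebpa, the factor of the granulocyte-monocyte step, was at 18 ± 2.09 FPKM in BMDM and 197 ± 4.31 FPKM in progenitor cells (log2 change -2.79, SE 0.065). The members that rose included Id2, an inhibitor of helix-loop-helix factors, at 283 ± 23 FPKM in BMDM and 0.887 ± 0.323 FPKM in progenitor cells (log2 change 8.98, SE 0.11). Cebpe, a factor of late granulocytes, was at 26.7 ± 4.08 FPKM in BMDM and 6.04 ± 0.824 FPKM in progenitor cells (log2 change 2.81, SE 0.14). Hoxa9 was low throughout, at 0.833 ± 0.323 FPKM in BMDM and 0 in progenitor cells (at least 21.6-fold higher). Gata2, shared by stem and mast cells, was at 32.8 ± 1.51 FPKM in BMDM and 77.7 ± 1.06 FPKM in progenitor cells (log2 change -0.57, SE 0.057).

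Growth receptors and surface antigens of progenitors moved in both directions, and 11 of 18 tested members rose and 7 fell, with a median log2 change of 3.18. Csf2rb, the common beta chain of the receptors for interleukin 3 and GM-CSF, was at 847, 790 and 719 FPKM in BMDM, against 86.1, 80.2 and 81 FPKM in progenitor cells (log2 change 3.92, SE 0.086). Csf3r, the G-CSF receptor, was at 82 ± 4.73 FPKM in BMDM and 13.4 ± 0.299 FPKM in progenitor cells (log2 change 3.23, SE 0.058). The stem cell antigen Ly6a was at 145 ± 6.4 FPKM in BMDM and 0.09 ± 0.09 FPKM in progenitor cells (a ratio of 2667, 95% counting interval 912 to 12936). Prom1, which encodes CD133, was at 14.5 ± 1.34 FPKM in BMDM and 0 in progenitor cells (at least 457-fold higher). Both are used as stem cell markers and both were higher in BMDM. Of the growth factors and their myeloid receptors, 15 of 18 tested members rose and 2 fell (12 and 5 with library totals), with a median log2 change of 5.07 (4.03 with 0 counts at their bound). Csf3, which encodes G-CSF, was at 215 ± 43.9 FPKM in BMDM and 0 in progenitor cells (at least 2184-fold higher). Igf1, insulin-like growth factor, was at 4.41 ± 0.718 FPKM in BMDM and 0 in progenitor cells (at least 277-fold higher). Pdgfb, a platelet-derived growth factor chain, was at 19.8 ± 0.604 FPKM in BMDM and 0 in progenitor cells (at least 472-fold higher). Tgfb1 was not called, at 254 ± 32.4 FPKM in BMDM and 413 ± 3.42 FPKM in progenitor cells (log2 change -0.027, SE 0.092).

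Granule genes separated into an early set that was mostly higher in progenitor cells and a late set that was higher in BMDM. For the azurophil set, 5 of 16 tested members rose and 10 fell (2 and 13 with library totals), with a median log2 change of -1.19. Ctsg, the granule protease cathepsin G, was at 32.8, 48.4 and 54.3 FPKM in BMDM, against 1970.5, 1991 and 1968 FPKM in progenitor cells (log2 change -4.78, SE 0.11). Mpo, myeloperoxidase, was at 15.3, 22.8 and 23.7 FPKM in BMDM, against 132, 113 and 111 FPKM in progenitor cells (log2 change -1.86, SE 0.1). Elane, neutrophil elastase, was at 47.7, 90.8 and 93.6 FPKM in BMDM, against 66.9, 71.6 and 57.7 FPKM in progenitor cells (log2 change 0.92, SE 0.16). Elane was called higher in BMDM although its FPKM values overlapped, and with library totals in place of TMM it was not called (log2 change 0.26, adjusted p = 0.172 in edgeR's quasi-likelihood test). Ms4a3, a marker of granulocyte-monocyte progenitors, was at 22.9 ± 6.98 FPKM in BMDM and 684 ± 7.87 FPKM in progenitor cells (log2 change -4.23, SE 0.12). Plac8, a small cysteine-rich protein, was at 80.2 ± 22.4 FPKM in BMDM and 2265 ± 48.5 FPKM in progenitor cells (log2 change -4.12, SE 0.14). Igsf6, which rose, was at 149.6 ± 11.5 FPKM in BMDM and 11.9 ± 1.66 FPKM in progenitor cells (log2 change 4.32, SE 0.082). Calr, a chaperone of the endoplasmic reticulum, was not called, at 1028 ± 91.4 FPKM in BMDM and 1706 ± 25.6 FPKM in progenitor cells (log2 change -0.058, SE 0.078).

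For the late neutrophil set, all 23 tested members rose, with a median log2 change of 12.86 (10.73 with 0 counts at their bound). Of the 23, 14 had no count in progenitor cells and could not be called lower, so the count of rises carries little. S100a8, a calprotectin subunit, was at 2385, 6362 and 4866 FPKM in BMDM, against 0 in all 3 progenitor libraries (at least 4102-fold higher). Its partner S100a9 was at 1629.7, 3493 and 3842 FPKM in BMDM, against 0 in all 3 progenitor libraries (at least 6133-fold higher). Ngp, a secondary granule protein, was at 548, 1048 and 1013 FPKM in BMDM, against 0 in all 3 progenitor libraries (at least 6916-fold higher). All 3 were high in BMDM and had no count in any progenitor library, and the first BMDM library was lowest for each. Chil3, a chitinase-like protein of both neutrophils and macrophages, was at 652 ± 143 FPKM in BMDM and 0 in progenitor cells (at least 7491-fold higher). Mmp8, the neutrophil collagenase, was at 1243 ± 121 FPKM in BMDM and 0.147 ± 0.0289 FPKM in progenitor cells (log2 change 13.65, SE 0.23). The summed level of the late set was 18263, 25708 and 23839 FPKM in BMDM libraries 1, 2 and 3, against 115 to 125 FPKM in progenitor cells. Ly6g, a defining marker of mature mouse neutrophils, was at 5.68, 8.63 and 7.04 FPKM in BMDM, against 0 in all 3 progenitor libraries (at least 40.3-fold higher). Cxcr2, a chemokine receptor of neutrophils, was at 7.2, 12.8 and 11.6 FPKM in BMDM, against 1.19, 0.8 and 0.79 FPKM in progenitor cells (log2 change 4.18, SE 0.22). In Hoxb8 macrophages the late set summed to 29785 to 35613 FPKM, so its high level was not particular to BMDM. Against Hoxb8 macrophages, BMDM were higher for S100a8, S100a9 and Ngp (log2 differences 2.22, 3.10 and 3.18) and lower for Ly6g (-0.60). The part of neutrophils among the BMDM in these values was not tested.

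Genes of DNA replication were lower in BMDM almost without exception. In the S phase list 1 of 34 tested members rose and 33 fell, with a median log2 change of -2.29. Mcm5, part of the replicative helicase, was at 13.3, 12.4 and 14 FPKM in BMDM, against 131, 144 and 136 FPKM in progenitor cells (log2 change -2.71, SE 0.064). Cdc6, which loads that helicase at origins, was at 1.78, 1.89 and 1.76 FPKM in BMDM, against 22.9, 23.3 and 23.8 FPKM in progenitor cells (log2 change -3.02, SE 0.076). Rrm2, a subunit of ribonucleotide reductase, was at 19.3, 20.3 and 23.7 FPKM in BMDM, against 127, 121 and 127 FPKM in progenitor cells (log2 change -1.9, SE 0.074). None of these genes was absent from BMDM. The largest falls of the list were in other helicase subunits. Mcm2 was at 10.9 ± 0.205 FPKM in BMDM and 176 ± 4.6 FPKM in progenitor cells (log2 change -3.34, SE 0.07). Mcm6 was at 17.6 ± 0.645 FPKM in BMDM and 236 ± 5.34 FPKM in progenitor cells (log2 change -3.09, SE 0.06). Mcm7 was at 19.7 ± 1.32 FPKM in BMDM and 268 ± 1.04 FPKM in progenitor cells (log2 change -3.09, SE 0.067). Pcna, the sliding clamp, was at 103 ± 4.25 FPKM in BMDM and 472 ± 2.68 FPKM in progenitor cells (log2 change -1.53, SE 0.079). The member that rose was E2f1, an activator of this set, at 19.4, 22.5 and 22.9 FPKM in BMDM, against 25, 25.9 and 24.5 FPKM in progenitor cells (log2 change 0.43, SE 0.068), and with library totals it was lower in BMDM (log2 change -0.23).

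Mitotic genes were lower too. In the G2 and M phase list all 32 tested members fell, with a median log2 change of -1.38. Ccnb1, cyclin B1, was at 15.2, 15.9 and 17.9 FPKM in BMDM, against 79.4, 80.3 and 79.6 FPKM in progenitor cells (log2 change -1.62, SE 0.065). Mki67, the Ki-67 antigen of cycling cells, was at 27.6, 34.6 and 42.2 FPKM in BMDM, against 81.8, 77.3 and 78.9 FPKM in progenitor cells (log2 change -0.54, SE 0.11). Cdc20, an activator of the anaphase-promoting complex, was at 15.1, 16.5 and 18.8 FPKM in BMDM, against 97.5, 99.8 and 103 FPKM in progenitor cells (log2 change -1.9, SE 0.075). The first BMDM library was the lowest of the 3 for each of these genes, as it was for 26 of the 32 members. Mad2l1, of the spindle checkpoint, was at 11.7 ± 2.38 FPKM in BMDM and 95.1 ± 1.82 FPKM in progenitor cells (log2 change -2.42, SE 0.1). The checkpoint kinase Ttk was at 1.9 ± 0.172 FPKM in BMDM and 14.8 ± 1.11 FPKM in progenitor cells (log2 change -2.27, SE 0.16).

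The promoters of a replication gene and a mitotic gene are printed because both sets fell together. RefSeq windows (GRCm38.p6) from 250 bases before to 50 after a start were found for 9535 of the 11793 tested genes. A gene can have several windows, 12153 in all, and a match in any of them counted. The starts are those of the RefSeq window table, and those of Cdc6 and Ifit3 lie inside the span annotated for the gene. The E2F motif was searched on both strands as TTTCCCGC or TTTGGCGC, and was in 28.6% of the S phase genes (8 of 28) and 3.48% of all genes with a window. The CCAAT box was searched as CCAAT on both strands and was in 77.8% of the G2 and M phase genes, 60.7% of the S phase genes and 43.3% of all genes with a window. The 2 motifs do not overlap in their letters, and a match describes the sequence, not a bound site. The capitals mark the E2F match in Cdc6 (chr11:98907901-98908200, plus strand) and the pair of CCAAT boxes in Ccnb1 (chr13:100786437-100786736, minus strand), read 5′ to 3′ along the gene.
Cdc6: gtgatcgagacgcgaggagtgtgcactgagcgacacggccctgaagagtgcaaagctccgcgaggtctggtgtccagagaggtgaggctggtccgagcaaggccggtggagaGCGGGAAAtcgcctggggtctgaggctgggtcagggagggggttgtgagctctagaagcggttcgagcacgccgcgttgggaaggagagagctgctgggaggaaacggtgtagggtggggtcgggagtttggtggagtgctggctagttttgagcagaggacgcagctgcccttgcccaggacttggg
Ccnb1: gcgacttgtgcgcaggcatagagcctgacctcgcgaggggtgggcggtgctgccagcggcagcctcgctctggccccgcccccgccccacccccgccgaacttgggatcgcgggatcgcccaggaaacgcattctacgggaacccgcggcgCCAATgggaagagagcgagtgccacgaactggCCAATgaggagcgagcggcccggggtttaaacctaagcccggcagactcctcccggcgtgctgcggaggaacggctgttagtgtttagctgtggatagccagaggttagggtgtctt

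Cell cycle inhibitors mostly went the other way, and 11 of 15 tested members rose and 4 fell (9 and 6 with log2(TPM + 1)), with a median log2 change of 1.4. Cdkn1a, which encodes the CDK inhibitor p21, was at 295, 319.8 and 316 FPKM in BMDM, against 35.3, 37 and 39.4 FPKM in progenitor cells (log2 change 3.73, SE 0.065). Cdkn2a, which encodes p16 and p19Arf, was at 1.49, 1.77 and 2.7 FPKM in BMDM, against 32.4, 31.9 and 31.3 FPKM in progenitor cells (log2 change -3.35, SE 0.12). Btg1, an antiproliferative gene, was at 196, 177 and 186 FPKM in BMDM, against 8.54, 7.77 and 7.73 FPKM in progenitor cells (log2 change 5.21, SE 0.081). Its relative Btg2 was at 37.9 ± 4.57 FPKM in BMDM and 4.06 ± 0.754 FPKM in progenitor cells (log2 change 3.89, SE 0.1). Cdkn2a thus fell while most of its list rose. The D cyclins and their kinases, which drive entry into S phase, were a short list in which 2 of 6 tested members rose and 4 fell (0 and 4 after quantile normalisation), with a median log2 change of -0.83. Cdk4 was at 75.6 ± 1.29 FPKM in BMDM and 481 ± 14 FPKM in progenitor cells (log2 change -1.99, SE 0.053). Cdk6 was at 13.3 ± 0.818 FPKM in BMDM and 72.1 ± 1.27 FPKM in progenitor cells (log2 change -1.79, SE 0.052). Ccnd1 was at 1.13 ± 0.2 FPKM in BMDM and 0.403 ± 0.0971 FPKM in progenitor cells (log2 change 2.15, SE 0.21), and after quantile normalisation it was not called (log2 change 0.16, adjusted p = 0.705 in limma). Ccnd3 was at 122 ± 9.48 FPKM in BMDM and 145 ± 1.39 FPKM in progenitor cells (log2 change 0.3, SE 0.074), and with library totals it was lower in BMDM (log2 change -0.36).

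Genes that make ribosomes and nucleotides were lower in BMDM as a block. In the ribosome biogenesis list all 30 tested members fell, with a median log2 change of -2.37. Dkc1, the dyskerin pseudouridine synthase, was at 2.95, 3.23 and 3.01 FPKM in BMDM, against 99.6, 97.7 and 97.9 FPKM in progenitor cells (log2 change -4.22, SE 0.088). Ncl, nucleolin, was at 36, 34.2 and 40.8 FPKM in BMDM, against 326, 311 and 319 FPKM in progenitor cells (log2 change -2.46, SE 0.072). Npm1, nucleophosmin, was at 135, 158 and 214 FPKM in BMDM, against 1054, 1025 and 1056 FPKM in progenitor cells (log2 change -1.95, SE 0.11). Each was lower in every BMDM library, and Npm1 stayed above 100 FPKM there. Polr1b, a subunit of RNA polymerase I, was at 2.06 ± 0.452 FPKM in BMDM and 35.9 ± 0.474 FPKM in progenitor cells (log2 change -3.45, SE 0.11). In the nucleotide synthesis list 1 of 24 tested members rose and 23 fell, with a median log2 change of -2.27. Shmt1, of one-carbon metabolism, was at 2.37, 2.04 and 2.95 FPKM in BMDM, against 75.2, 73.6 and 75.6 FPKM in progenitor cells (log2 change -4.26, SE 0.093). Cad, which starts pyrimidine synthesis, was at 3.54 ± 0.142 FPKM in BMDM and 67 ± 1.48 FPKM in progenitor cells (log2 change -3.58, SE 0.056). Ppat, which starts purine synthesis, was at 2.97 ± 0.3 FPKM in BMDM and 44.4 ± 1.33 FPKM in progenitor cells (log2 change -3.24, SE 0.083). The member that rose was Mthfd2, a mitochondrial one-carbon enzyme, at 68.7, 54.4 and 67.3 FPKM in BMDM, against 56.7, 58.1 and 57.7 FPKM in progenitor cells (log2 change 0.81, SE 0.076), which was not called with library totals (log2 change 0.15, adjusted p = 0.0695 in edgeR's quasi-likelihood test). The structural proteins of the ribosome behaved otherwise: in their list 3 of 35 tested members rose and 22 fell (0 and 35 with library totals), with a median log2 change of -0.26. That median is small against the shift between scalings, and 34 of the 35 members were lowest in the first BMDM library. Rpl3 was at 694 ± 28.2 FPKM in BMDM and 1716 ± 47 FPKM in progenitor cells (log2 change -0.64, SE 0.063). Rps2 was at 1503 ± 108 FPKM in BMDM and 3602 ± 100.2 FPKM in progenitor cells (log2 change -0.58, SE 0.062).

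**Figure D3:**
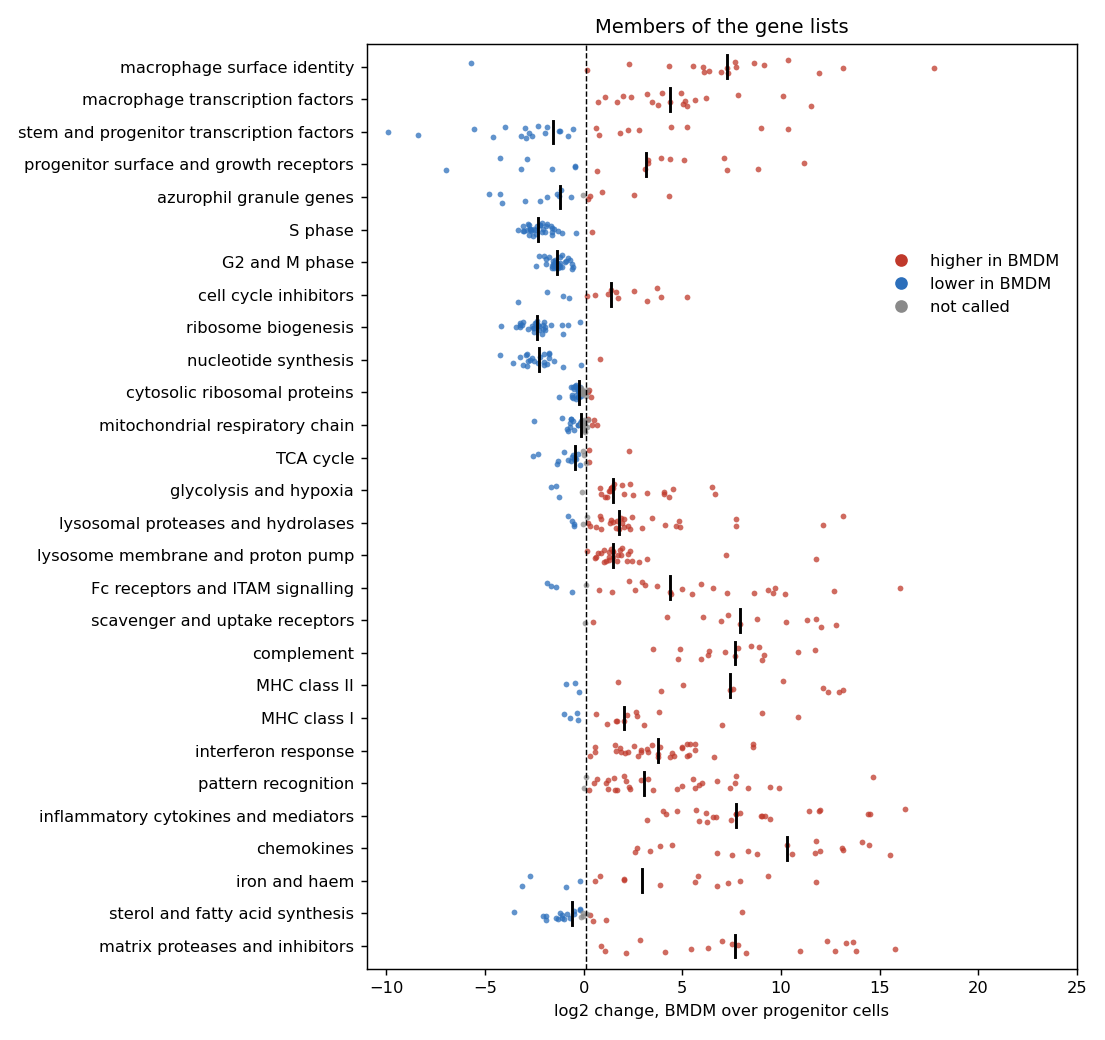
Model log2 change (BMDM over progenitor cells) of each tested member of 28 gene lists, with the median of each list as a bar and that of all genes (0.1) as a dashed line; genes with a count of 0 in a group are placed at their bound. Division and biosynthesis lists lie left of the line, the phagocytic, lysosomal and inflammatory lists to its right, and the respiratory chain list straddles it.

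Glycolytic genes were mostly higher in BMDM and TCA cycle genes mostly lower. In the glycolysis and hypoxia list 22 of 26 tested members rose and 3 fell (20 and 6 after quantile normalisation), with a median log2 change of 1.46. Slc2a1, the glucose transporter GLUT1, was at 360.5, 373 and 359 FPKM in BMDM, against 26.7, 31.2 and 29.4 FPKM in progenitor cells (log2 change 4.31, SE 0.068). Slc16a3, the lactate exporter MCT4, was at 280.5, 274 and 261 FPKM in BMDM, against 4.31, 4.29 and 4.11 FPKM in progenitor cells (log2 change 6.67, SE 0.1). Vegfa, an angiogenic factor induced by low oxygen, was at 90.4, 127 and 124 FPKM in BMDM, against 1.81, 2.09 and 2.24 FPKM in progenitor cells (log2 change 6.5, SE 0.13). The BMDM libraries were far above the progenitor libraries for all 3. Gapdh was at 5894 ± 256 FPKM in BMDM and 4158 ± 229 FPKM in progenitor cells (log2 change 1.18, SE 0.072), and at -1.32 after quantile normalisation. Hk1 was not called, at 96.4 ± 8.35 FPKM in BMDM and 166 ± 2.86 FPKM in progenitor cells (log2 change -0.092, SE 0.07). Hk3, the hexokinase that fell, was at 94.8 ± 5.54 FPKM in BMDM and 365 ± 8.63 FPKM in progenitor cells (log2 change -1.27, SE 0.059). In the TCA cycle list 3 of 20 tested members rose and 14 fell (1 and 19 with library totals), with a median log2 change of -0.46. Idh2, mitochondrial isocitrate dehydrogenase, was at 33.5, 37.1 and 35.2 FPKM in BMDM, against 323, 339.6 and 342 FPKM in progenitor cells (log2 change -2.57, SE 0.067). Idh3a, a subunit of the NAD-dependent enzyme, was at 7.35 ± 0.613 FPKM in BMDM and 58.9 ± 0.454 FPKM in progenitor cells (log2 change -2.33, SE 0.092). Pcx, pyruvate carboxylase, went the other way, at 4.49 ± 0.24 FPKM in BMDM and 1.46 ± 0.0493 FPKM in progenitor cells (log2 change 2.29, SE 0.089). For the respiratory chain, 4 of 28 tested members rose and 14 fell (0 and 26 with library totals), with a median log2 change of -0.13, and 10 members were not called. Ndufa4 was the largest fall of that list, at 116 ± 14 FPKM in BMDM and 1111 ± 51.1 FPKM in progenitor cells (log2 change -2.54, SE 0.081). In the sterol and fatty acid synthesis list 4 of 24 tested members rose and 16 fell (2 and 22 with log2(TPM + 1)), with a median log2 change of -0.59. Fasn, fatty acid synthase, was at 15.9 ± 2.91 FPKM in BMDM and 94.5 ± 0.484 FPKM in progenitor cells (log2 change -1.91, SE 0.13). Elovl6, an elongase, was at 1.7 ± 0.259 FPKM in BMDM and 31.5 ± 0.57 FPKM in progenitor cells (log2 change -3.54, SE 0.089). Scd1, a desaturase, went against the list, at 22.6 ± 1.76 FPKM in BMDM and 0.14 ± 0.0361 FPKM in progenitor cells (log2 change 8.01, SE 0.15).

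Lysosomal genes were higher in BMDM. In the list of lysosomal proteases and hydrolases 29 of 35 tested members rose and 4 fell (23 and 9 with log2(TPM + 1)), with a median log2 change of 1.79, and in that of the membrane and proton pump all 28 tested members rose (23 and 3 with log2(TPM + 1)), with a median log2 change of 1.48. Ctsd, cathepsin D, was at 7757, 6955 and 6806 FPKM in BMDM, against 447, 462 and 433 FPKM in progenitor cells (log2 change 4.68, SE 0.1). Ctsb, cathepsin B, was at 1949, 1785 and 1731 FPKM in BMDM, against 157, 155 and 159.5 FPKM in progenitor cells (log2 change 4.1, SE 0.1). Ctss, the cathepsin that trims the invariant chain, was at 913, 958 and 972 FPKM in BMDM, against 0.33, 0.16 and 0.61 FPKM in progenitor cells (log2 change 12.14, SE 0.13). The first pair was already well expressed in progenitor cells, and Ctss was not. Lgmn, legumain, was at 162 ± 13.6 FPKM in BMDM and 0.0233 ± 0.0404 FPKM in progenitor cells (a ratio of 11551, 95% counting interval 3197 to 95387). Ctsl, cathepsin L, was at 1155 ± 94.5 FPKM in BMDM and 8.73 ± 0.0529 FPKM in progenitor cells (log2 change 7.72, SE 0.11). Ctsk, the cathepsin of osteoclasts, was at 10.2 ± 2.36 FPKM in BMDM and 0.0633 ± 0.0252 FPKM in progenitor cells (log2 change 7.71, SE 0.32). Lamp1, a membrane glycoprotein of lysosomes, was at 666, 644 and 627 FPKM in BMDM, against 185, 190.4 and 188 FPKM in progenitor cells (log2 change 2.45, SE 0.066). Slc11a1 (NRAMP1), which moves metal ions out of the phagosome, was at 151 ± 16.5 FPKM in BMDM and 0.07 ± 0.0173 FPKM in progenitor cells (log2 change 11.76, SE 0.16). Atp6v0d2, a subunit of the proton pump, was at 7.31 ± 0.757 FPKM in BMDM and 0 in progenitor cells (at least 149.9-fold higher). Gaa was not called, at 56.1 ± 1.82 FPKM in BMDM and 91.4 ± 2.74 FPKM in progenitor cells (log2 change -0.037, SE 0.075).

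The Ctsd promoter is shown because an E-box variant bound by the MiT family of lysosomal regulators (M-box, letters TCACGTGA, a palindrome that contains the E-box CACGTG) lies in it. The M-box was in 22.7% of the genes of the membrane and pump list with a window, 10.7% of those of the hydrolase list and 2.24% of all. In chr7:142387778-142388077 (minus strand) the capitals mark the match.
Ctsd: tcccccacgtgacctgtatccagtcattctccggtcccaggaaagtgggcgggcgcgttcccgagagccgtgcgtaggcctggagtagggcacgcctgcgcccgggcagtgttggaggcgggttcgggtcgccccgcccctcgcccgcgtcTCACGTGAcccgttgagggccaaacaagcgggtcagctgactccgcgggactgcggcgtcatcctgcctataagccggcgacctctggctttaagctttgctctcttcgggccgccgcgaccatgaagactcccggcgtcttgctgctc

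Receptors for uptake were higher in BMDM, many of them with no count in progenitor cells. In the list of Fc receptors and ITAM signalling 21 of 26 tested members rose and 4 fell, with a median log2 change of 4.39. Fcgr1, the high-affinity receptor for IgG, was at 30.7, 24.3 and 24.9 FPKM in BMDM, against 0.25, 0.17 and 0.4 FPKM in progenitor cells (log2 change 7.26, SE 0.19). Clec4n (dectin-2), which recognises fungal sugars, was at 1485, 1287 and 1303 FPKM in BMDM, against 0, 0 and 0.07 FPKM in progenitor cells (a ratio of 103583, 95% counting interval 18591 to 4091387). Trem2, a lipid receptor of tissue macrophages, was at 150.3, 146 and 156 FPKM in BMDM, against 0, 0.07 and 0 FPKM in progenitor cells (a ratio of 10087, 95% counting interval 1809.7 to 398453). In the scavenger receptor list 12 of 13 tested members rose and none fell (11 and 2 with log2(TPM + 1)), with a median log2 change of 8.8 (7.93 with 0 counts at their bound). Marco, which binds bacteria and particles, was at 504, 448 and 438 FPKM in BMDM, against 0 in all 3 progenitor libraries (at least 7024-fold higher). Msr1, the class A scavenger receptor, was at 215 ± 11.1 FPKM in BMDM and 0 in progenitor cells (at least 4147-fold higher). Cd36, which takes up oxidised lipoprotein, was at 6.66 ± 0.869 FPKM in BMDM and 0 in progenitor cells (at least 160.4-fold higher). For the clearance of dying cells, 15 of 18 tested members rose and 2 fell (13 and 5 with library totals), with a median log2 change of 5.84. Mertk, a receptor for phosphatidylserine bridges, was at 4.66, 3.8 and 3.98 FPKM in BMDM, against 0 in all 3 progenitor libraries (at least 161-fold higher), low beside the other receptors.

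Complement and antigen presentation genes were higher too. In the complement list all 15 tested members rose, with a median log2 change of 9.03 (7.66 with 0 counts at their bound). Of the 21 listed genes with values, 9 had no count in progenitor cells, and such genes could not be called lower. C1qb, a chain of the first complement component, was at 79.8, 53.3 and 56.1 FPKM in BMDM, against 0 in all 3 progenitor libraries (at least 473-fold higher). Its partner C1qa was at 19.4 ± 5.07 FPKM in BMDM and 0 in progenitor cells (at least 142-fold higher). Cfb, factor B, was at 82.1 ± 11.4 FPKM in BMDM and 0 in progenitor cells (at least 1863-fold higher). C3ar1, the receptor for C3a, was at 114 ± 7.61 FPKM in BMDM and 0.0533 ± 0.0404 FPKM in progenitor cells (log2 change 11.7, SE 0.15). In the MHC class II list 10 of 13 tested members rose and 3 fell, with a median log2 change of 7.42. H2-Aa, a class II alpha chain, was at 161, 176 and 174 FPKM in BMDM, against 0.07, 0 and 0 FPKM in progenitor cells (a ratio of 11805, 95% counting interval 2118 to 466333). Cd74, the invariant chain, was at 857, 901 and 870.5 FPKM in BMDM, against 0.16, 0.37 and 0.23 FPKM in progenitor cells (log2 change 12.36, SE 0.14). H2-Eb1, a class II beta chain, was at 84.3, 86.8 and 85.9 FPKM in BMDM, against 0 in all 3 progenitor libraries (at least 1091-fold higher). These 3 were near or at 0 in progenitor cells. In the MHC class I list 13 of 17 tested members rose and 4 fell, with a median log2 change of 2.06. Nlrc5, the class I transactivator, was at 3.87 ± 0.0833 FPKM in BMDM and 0.01 ± 0.01 FPKM in progenitor cells (log2 change 9.02, SE 0.19). H2-Q7 was at 34.7 ± 3.15 FPKM in BMDM and 0.0233 ± 0.0404 FPKM in progenitor cells (a ratio of 2796, 95% counting interval 501 to 110500.3). H2-Q4 was at 40.6 ± 4 FPKM in BMDM and 4.49 ± 0.238 FPKM in progenitor cells (log2 change 3.81, SE 0.1). Both belong to a family of close copies whose reads may have been divided between them in counting.

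The listed interferon-induced genes rose but to modest levels. Ifitm1, which reached 4037 to 4393 FPKM in BMDM and is described below, lies outside their list. In the list all 33 tested members rose, with a median log2 change of 3.77 (3.74 with 0 counts at their bound). Ifit1, an antiviral RNA-binding protein, was at 6.6, 6.79 and 7.31 FPKM in BMDM, against 0.02, 0.02 and 0.02 FPKM in progenitor cells (a ratio of 451, 95% counting interval 154 to 2190.2). Ifit3, its partner, was at 3.05, 3.35 and 3.07 FPKM in BMDM, against 0 in all 3 progenitor libraries (at least 49.9-fold higher). Ifi204, a DNA sensor of the HIN-200 family, was at 20.3, 19.4 and 22.4 FPKM in BMDM, against 0 in all 3 progenitor libraries (at least 387-fold higher). The summed level of the list was 896 to 969 FPKM in BMDM and 233 to 241 FPKM in progenitor cells. The Ifit3 promoter is shown because the list shared the interferon-stimulated response element, searched on both strands as a pair of GAAA blocks set 2 bases apart, in 70.4% of its genes with a window against 3.9% of all such genes. The window is chr19:34583279-34583578 (plus strand), with both matches in capitals.
Ifit3: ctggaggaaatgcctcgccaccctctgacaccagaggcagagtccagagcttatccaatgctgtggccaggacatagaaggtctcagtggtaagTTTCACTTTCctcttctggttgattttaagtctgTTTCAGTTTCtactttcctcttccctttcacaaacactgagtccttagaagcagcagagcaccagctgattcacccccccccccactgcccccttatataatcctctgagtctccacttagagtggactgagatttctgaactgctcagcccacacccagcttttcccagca

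Sensors of microbes were also higher, and 30 of 32 tested members rose and none fell (27 and 4 with log2(TPM + 1)), with a median log2 change of 3.07. Nlrp3, an inflammasome sensor, was at 143, 129 and 115 FPKM in BMDM, against 0.02, 0 and 0 FPKM in progenitor cells (a ratio of 39457, 95% counting interval 7081 to 1558511). Tlr8, an RNA sensor of endosomes, was at 7.47 ± 0.514 FPKM in BMDM and 0 in progenitor cells (at least 320.5-fold higher). Tlr1, a partner of Tlr2 on the surface, was at 23.8 ± 0.798 FPKM in BMDM and 0.0333 ± 0.0231 FPKM in progenitor cells (log2 change 9.89, SE 0.17).

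Inflammatory genes were high in BMDM, which the labels give as untreated. In the list of inflammatory cytokines and mediators all 24 tested members rose, with a median log2 change of 8.36 (7.71 with 0 counts at their bound). Il1b was at 5009, 4933 and 5028 FPKM in BMDM, against 0.06, 0.03 and 0.16 FPKM in progenitor cells (log2 change 16.28, SE 0.15). Tnf was at 219.7, 238 and 222 FPKM in BMDM, against 3.75, 3.64 and 4.09 FPKM in progenitor cells (log2 change 6.56, SE 0.19). Nos2, the inducible nitric oxide synthase, was at 630.2, 693 and 597 FPKM in BMDM, against 0 in all 3 progenitor libraries (at least 23073-fold higher). Every BMDM library held all 3 at high levels. Il1a was at 1389.9 ± 67.1 FPKM in BMDM and 0 in progenitor cells (at least 21714-fold higher). Il12b, the p40 subunit of interleukin 12, was at 25.2 ± 2.76 FPKM in BMDM and 0 in progenitor cells (at least 518-fold higher). Outside the list, Saa3, an acute phase protein (chromosome 7, 46711998 to 46719615), showed the largest rise of all named genes on the log2(FPKM + 1) scale, at 9539, 10759.8 and 11477 FPKM in BMDM, against 0, 0.12 and 0 FPKM in progenitor cells (a ratio of 317389, 95% counting interval 56965 to 12536263).

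Chemokine genes rose without exception: all 19 tested members rose, with a median log2 change of 10.53 (10.31 with 0 counts at their bound). Of the 21 listed genes, 10 had no count in progenitor cells, and such genes could not be called lower. Cxcl2, an attractant of neutrophils, was at 1143, 1255 and 1338 FPKM in BMDM, against 0 in all 3 progenitor libraries (at least 9042-fold higher). Cxcl3, a close relative, was at 7292, 6665 and 6864 FPKM in BMDM, against 0 in all 3 progenitor libraries (at least 46308-fold higher). Ccl5 was at 1768, 2387 and 2756 FPKM in BMDM, against 0, 0 and 0.51 FPKM in progenitor cells (a ratio of 22249.6, 95% counting interval 6159 to 183730.3). Ccl22 was at 287 ± 15.7 FPKM in BMDM and 0 in progenitor cells (at least 4038-fold higher). These came from a count of 0 or nearly 0 in progenitor cells. Among the receptors, 18 of 21 tested members rose and 1 fell (16 and 5 after quantile normalisation), with a median log2 change of 5.87. Fpr1, a receptor for bacterial formyl peptides, was at 331 ± 42.5 FPKM in BMDM and 0 in progenitor cells (at least 3156-fold higher). Ccr7, which guides cells to lymph nodes, was at 83.4 ± 5.73 FPKM in BMDM and 0.01 ± 0.0173 FPKM in progenitor cells (a ratio of 11714, 95% counting interval 2102 to 462733). Cxcr4, which holds cells in the marrow, was not called, at 43.4 ± 1.91 FPKM in BMDM and 69.2 ± 1.51 FPKM in progenitor cells (log2 change -0.0021, SE 0.065). The Cxcl2 window is shown for its NF-kB motif, searched on both strands in 3 common 10-base spellings of the kappa B site, of which the capitals show 1, which was in 23.1% of the chemokine genes with a window (Cxcl1, Cxcl2 and Cxcl3) and in 0.482% of all such genes. It lies at chr5:90903649-90903948 (plus strand), and the capitals mark the match.
Cxcl2: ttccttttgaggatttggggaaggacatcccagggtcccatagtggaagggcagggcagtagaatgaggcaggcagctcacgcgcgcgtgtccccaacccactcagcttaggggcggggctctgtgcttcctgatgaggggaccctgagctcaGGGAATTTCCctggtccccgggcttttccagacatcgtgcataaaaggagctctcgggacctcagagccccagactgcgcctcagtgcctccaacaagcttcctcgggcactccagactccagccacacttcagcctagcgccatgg

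Genes of alternative activation rose in the same libraries, and all 17 tested members rose, with a median log2 change of 10.24 (7.6 with 0 counts at their bound). Of the 19 listed genes, 11 had no count in progenitor cells, where the whole list summed to 10.3 to 10.9 FPKM. A fall was hardly possible for most members, so the count of rises carries little. Arg1, arginase, was at 1937, 1516 and 1419 FPKM in BMDM, against 0 in all 3 progenitor libraries (at least 17841-fold higher). Mrc1, the mannose receptor, was at 7.25, 4.56 and 4.7 FPKM in BMDM, against 0.09, 0.07 and 0.05 FPKM in progenitor cells (log2 change 6.97, SE 0.27). Fn1, fibronectin, was at 16.2 ± 2.05 FPKM in BMDM and 0 in progenitor cells (at least 1165-fold higher). Arg1 and Nos2, enzymes that compete for arginine, were thus both high in BMDM.

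Lipid, iron and oxidant genes also set the groups apart. In the lipid handling list 19 of 22 tested members rose and 2 fell, with a median log2 change of 4.85 (4.44 with 0 counts at their bound). Lpl, lipoprotein lipase, was at 61.4, 56.6 and 57.4 FPKM in BMDM, against 0 in all 3 progenitor libraries (at least 2044-fold higher). Apoe, a usual macrophage product, went the other way, at 3.28, 3.23 and 3.68 FPKM in BMDM, against 11.3, 11 and 9.69 FPKM in progenitor cells (log2 change -1.84, SE 0.14). In the iron and haem list 12 of 16 tested members rose and 4 fell, with a median log2 change of 2.96. Fth1, the ferritin heavy chain, was at 38452, 37390.1 and 38433 FPKM in BMDM, against 1119, 1226 and 1299 FPKM in progenitor cells (log2 change 5.65, SE 0.089). Hmox1, which breaks down haem, was at 1791, 1897 and 1723 FPKM in BMDM, against 11.1, 11.3 and 13.3 FPKM in progenitor cells (log2 change 7.91, SE 0.089). Hamp, which encodes hepcidin, was at 151 ± 9.35 FPKM in BMDM and 0 in progenitor cells (at least 156-fold higher). Tfrc, the transferrin receptor of dividing cells, was at 9.61 ± 0.452 FPKM in BMDM and 102 ± 3.87 FPKM in progenitor cells (log2 change -2.74, SE 0.066). In the list of NADPH oxidase and oxidative defence genes 19 of 22 tested members rose and 3 fell, with a median log2 change of 2.42. Cybb, the catalytic subunit of the phagocyte oxidase, was at 488, 533 and 518 FPKM in BMDM, against 0 in all 3 progenitor libraries (at least 21269-fold higher), with no count in any progenitor library.

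Genes that act outside the cell were higher as well. In the list of matrix proteases and inhibitors all 18 tested members rose, with a median log2 change of 8.02 (7.68 with 0 counts at their bound). Mmp12, the macrophage elastase, was at 2099, 1523 and 1507 FPKM in BMDM, against 0.04, 0.04 and 0.04 FPKM in progenitor cells (log2 change 15.79, SE 0.34). Mmp14, a membrane-bound protease, was at 456, 435 and 402 FPKM in BMDM, against 0 in all 3 progenitor libraries (at least 14079.9-fold higher). Thbs1, thrombospondin, which is not in the list, was at 5182, 5068 and 4504 FPKM in BMDM, against 0 in all 3 progenitor libraries (at least 254763-fold higher). In the adhesion list 24 of 31 tested members rose and 4 fell (17 and 11 with log2(TPM + 1)), with a median log2 change of 1.34. Itgax, the CD11c integrin chain, was at 56.3 ± 7.8 FPKM in BMDM and 0.437 ± 0.0839 FPKM in progenitor cells (log2 change 7.66, SE 0.26). Vim, vimentin, was at 1279 ± 3.43 FPKM in BMDM and 29.7 ± 1.54 FPKM in progenitor cells (log2 change 6.1, SE 0.087). The osteoclast list had 8 tested members, and 7 of 8 tested members rose and none fell (6 and 2 with library totals), with a median log2 change of 10.52 (6.95 with 0 counts at their bound). Acp5, tartrate-resistant acid phosphatase, was at 367 ± 32.3 FPKM in BMDM and 0.403 ± 0.0666 FPKM in progenitor cells (log2 change 10.52, SE 0.17). Dcstamp, needed for cell fusion, was at 6.71 ± 0.739 FPKM in BMDM and 0 in progenitor cells (at least 102-fold higher).

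Several of the most altered genes lay outside these lists. Ifitm1, an interferon-induced membrane protein, was at 4037, 4393 and 4382 FPKM in BMDM, against 0 in all 3 progenitor libraries (at least 11832-fold higher). Cstdc4 and Stfa3 are cysteine protease inhibitors of the stefin A cluster, whose close copies may share reads. Cstdc4 was at 3114 ± 824 FPKM in BMDM and 0.18 ± 0.312 FPKM in progenitor cells (a ratio of 30519.8, 95% counting interval 5477 to 1205523). Stfa3 was at 2191 ± 264 FPKM in BMDM and 0 in progenitor cells (at least 2358-fold higher). Wfdc21 was at 2139 ± 135 FPKM in BMDM and 0.137 ± 0.237 FPKM in progenitor cells (a ratio of 25070, 95% counting interval 4499 to 990269.8). Among the falls, Glb1l2, a homologue of beta-galactosidase, was at 0.05, 0 and 0.08 FPKM in BMDM, against 178, 178 and 182 FPKM in progenitor cells (log2 change -11.35, SE 0.2). Muc13, a transmembrane mucin, was at 2.14, 2.71 and 4.21 FPKM in BMDM, against 326, 342 and 325 FPKM in progenitor cells (log2 change -6.12, SE 0.14). Angpt1, a ligand of the Tie2 receptor, was at 0.26, 0.27 and 0.19 FPKM in BMDM, against 110.4, 102 and 108 FPKM in progenitor cells (log2 change -8.14, SE 0.093). These were high in all 3 progenitor libraries and near 0 in BMDM, apart from Muc13, which kept a low level. Mrc2, a collagen receptor, was at 0.123 ± 0.0416 FPKM in BMDM and 68.8 ± 0.82 FPKM in progenitor cells (log2 change -8.49, SE 0.11). Adgrl4, an adhesion receptor, was at 0.0233 ± 0.0208 FPKM in BMDM and 55.5 ± 3.08 FPKM in progenitor cells (log2 change -10.47, SE 0.17). Emid1 was at 0.47 ± 0.0755 FPKM in BMDM and 171 ± 5.18 FPKM in progenitor cells (log2 change -7.75, SE 0.15). Susd5 was at 0.147 ± 0.0153 FPKM in BMDM and 120.2 ± 6.83 FPKM in progenitor cells (log2 change -8.99, SE 0.15).

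Markers of other blood and tissue cells were measured in the same libraries. In the eosinophil list 7 of 8 tested members rose and 1 fell, with a median log2 change of 8.01 (5.01 with 0 counts at their bound). Epx, eosinophil peroxidase, was at 28.2, 55.7 and 56.3 FPKM in BMDM, against 0 in all 3 progenitor libraries (at least 1034-fold higher). Prg2, the major basic protein, was at 214, 314 and 327 FPKM in BMDM, against 0.11, 0.11 and 0.11 FPKM in progenitor cells (a ratio of 4263, 95% counting interval 1458 to 20677). Siglecf, a surface marker of eosinophils, was the member that fell, at 1.81, 2.61 and 2.2 FPKM in BMDM, against 74.9, 70.8 and 70.1 FPKM in progenitor cells (log2 change -4.36, SE 0.11). In the mast cell and basophil list 7 of 11 tested members rose and 4 fell, with a median log2 change of 2.42. Cpa3, a mast cell protease also found in early progenitors, was at 22.6, 24.1 and 30.3 FPKM in BMDM, against 1348, 1239 and 1265 FPKM in progenitor cells (log2 change -4.94, SE 0.14). Prss34, a basophil protease, was at 160, 171 and 208 FPKM in BMDM, against 10.2, 9.33 and 9.45 FPKM in progenitor cells (log2 change 4.89, SE 0.18). In the B cell list all 7 tested members rose, with a median log2 change of 9.17 (7.28 with 0 counts at their bound). The whole list summed to 0.73 to 0.75 FPKM in progenitor cells, so no member entered the test through those libraries. A fall was therefore hardly possible, and the count of rises carries little. Cd79a, of the B cell receptor, was at 22.9, 11 and 17.8 FPKM in BMDM, against 0.17, 0.16 and 0.16 FPKM in progenitor cells (log2 change 7.28, SE 0.39). The first BMDM library was highest and the second lowest for all 7 B cell genes. In the megakaryocyte and platelet list 6 of 9 tested members rose and 1 fell (5 and 4 after quantile normalisation), with a median log2 change of 7.3 (4.49 with 0 counts at their bound). Pf4, platelet factor 4, was at 3628, 3326 and 3453 FPKM in BMDM, against 29.4, 31.3 and 33.4 FPKM in progenitor cells (log2 change 7.49, SE 0.093). Itga2b, a platelet integrin chain also carried by early progenitors, was at 15.8 ± 2.13 FPKM in BMDM and 90.2 ± 2.48 FPKM in progenitor cells (log2 change -1.85, SE 0.082). In the dendritic cell list 6 of 8 tested members rose and 2 fell, with a median log2 change of 7.1 (5.05 with 0 counts at their bound), and Fscn1 was at 27.1 ± 3.2 FPKM in BMDM and 0 in progenitor cells (at least 599-fold higher). Of the fibroblast genes, 9 of 10 tested members rose and 1 fell, with a median log2 change of 9.19 (5.94 with 0 counts at their bound). Col5a1 was at 75 ± 6.82 FPKM in BMDM and 0.00333 ± 0.00577 FPKM in progenitor cells (a ratio of 49540.2, 95% counting interval 8891 to 1956791). Col1a1, a main fibroblast collagen, was low, at 2.25 ± 0.422 FPKM in BMDM and 0.00333 ± 0.00577 FPKM in progenitor cells (a ratio of 1066, 95% counting interval 191 to 42156). In the endothelial list 3 of 5 tested members rose and 2 fell, with a median log2 change of 1.17 (2 rose and 2 fell after quantile normalisation), and Pecam1 was at 45.2 ± 3.23 FPKM in BMDM and 32 ± 1.39 FPKM in progenitor cells (log2 change 1.17, SE 0.082). The lists for T and NK cells (3 tested members, 2 higher and 1 lower), adipocytes (3 tested, 3 higher) and the erythroid lineage (4 tested, 2 higher, 1 lower and 1 not called) held few tested genes. For the erythroid list library totals turned that into 2 higher and 2 lower, and quantile normalisation into 1 higher and 2 lower. The summed level of the T and NK cell list was 63.1 to 66.2 FPKM in BMDM and 27 to 33.1 FPKM in progenitor cells. The T and NK cell markers Cd3e, Cd3d and Ncr1 were too low to be tested. In BMDM Cd3e was at 0.14, 0.09 and 0.13 FPKM, Cd3d at 0.15, 0.21 and 0.2 FPKM and Ncr1 at 0.05, 0 and 0 FPKM. All 3 were at 0 in progenitor cells. The adipocyte sum was 62.5 to 65.9 FPKM in BMDM and 0 FPKM in all 3 progenitor libraries, so no member of that list could be called lower in BMDM. The erythroid sum was 35.5 to 37.5 FPKM in BMDM and 129 to 138 FPKM in progenitor cells.

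**Figure D4:**
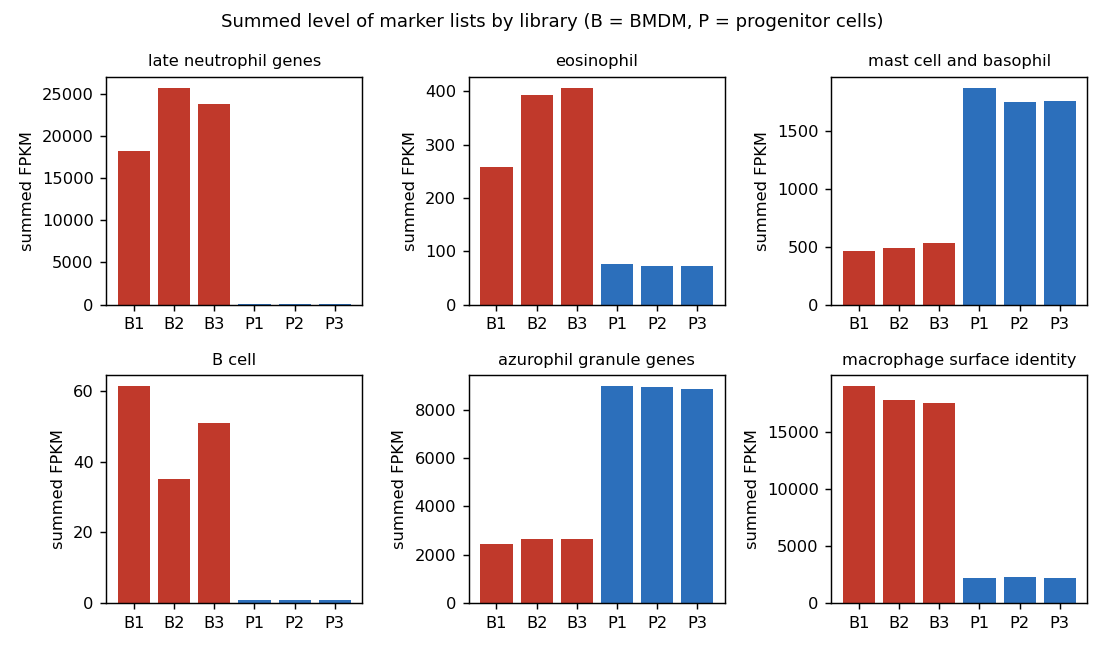
Summed FPKM of 6 marker lists (vertical, linear from 0) in each BMDM library (B1 to B3) and each progenitor library (P1 to P3). The first BMDM library has the lowest late neutrophil and eosinophil sums (18263 and 258 FPKM) and the highest B cell sum (61.3 FPKM) of the 3.

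The 3 BMDM libraries differed among themselves along these lists. Library 1 was the lowest of the 3 for 18 of 23 late neutrophil, 7 of 7 eosinophil and 15 of 16 azurophil members, and the highest for 14 of 19 macrophage surface members. Over the 10601 tested genes at 1 FPKM or more in BMDM, library 1 was lowest for 49.6% and highest for 30.1%. The summed eosinophil level was 258, 393 and 406 FPKM in BMDM libraries 1, 2 and 3, against 71.4 to 76 FPKM in progenitor cells, and the B cell level was 61.3, 35.1 and 50.8 FPKM, against 0.73 to 0.75 FPKM. Pairs of BMDM libraries correlated at 0.9891 to 0.9944 over log2 CPM (counts scaled to library size) across tested genes, and pairs of progenitor libraries at 0.9978 to 0.9979, genes not being independent replicates. The gene tests used a spread shared by all groups, although the BMDM libraries differed more among themselves than the progenitor libraries did. The part of other cell types in the changes described here was not tested.

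Hoxb8 macrophages were set directly against BMDM to show where BMDM differ from macrophages of the other wild-type, untreated group. In that comparison 8292 of 11793 genes (70.3%) were called by the same edgeR test, 4516 (38.3%) higher and 3776 (32%) lower in BMDM. The 2 groups were set against the same progenitor libraries, so that their changes from progenitor cells are not independent. Adgre1, Marco and Arg1 were not called (edgeR adjusted p = 0.843, 0.996 and 0.276). Adgre1 was at 1213 ± 193 FPKM in BMDM and 1070.1 ± 56 FPKM in Hoxb8 macrophages (log2 difference 0.023, SE 0.1). Marco was at 463 ± 35.5 FPKM in BMDM and 415 ± 83.9 FPKM in Hoxb8 macrophages (log2 difference -0.0018, SE 0.14). Arg1 was at 1624 ± 275 FPKM in BMDM and 1294 ± 305 FPKM in Hoxb8 macrophages (log2 difference 0.17, SE 0.14). Other genes of BMDM were low in Hoxb8 macrophages. H2-Aa was at 171 ± 8.08 FPKM in BMDM and 0.117 ± 0.202 FPKM in Hoxb8 macrophages (log2 difference 10.3, SE 0.23). C1qb was at 63.1 ± 14.6 FPKM in BMDM and 0.49 ± 0.0557 FPKM in Hoxb8 macrophages (log2 difference 6.82, SE 0.25). Mmp14 was at 431 ± 26.7 FPKM in BMDM and 0.637 ± 0.146 FPKM in Hoxb8 macrophages (log2 difference 9.24, SE 0.12). Further such genes were Tgfbi and Ifitm1. Tgfbi, a matrix protein, was at 620 ± 40.9 FPKM in BMDM and 1.5 ± 0.24 FPKM in Hoxb8 macrophages (log2 difference 8.52, SE 0.11). Ifitm1 was at 4271 ± 202 FPKM in BMDM and 11.3 ± 1.62 FPKM in Hoxb8 macrophages (log2 difference 8.31, SE 0.12). H2-Aa and C1qb did not stand for their whole lists. Cd74 was lower in BMDM, at 876 ± 22.9 against 1079 ± 47.2 FPKM (log2 difference -0.45), and Cfb was not called, at 82.1 ± 11.4 against 76.4 ± 15.2 FPKM. The MHC class II list summed to 2594 to 2719 FPKM in BMDM and 1440.3 to 1499 FPKM in Hoxb8 macrophages. The complement list summed to 3248 to 3812 and 2935 to 3114 FPKM. BMDM also held more of some progenitor-high transcripts than Hoxb8 macrophages did. Mpo was at 20.6 ± 4.63 FPKM in BMDM and 0.05 ± 0.02 FPKM in Hoxb8 macrophages (log2 difference 8.44, SE 0.27). Mcm5 was at 13.2 ± 0.815 FPKM in BMDM and 1.02 ± 0.117 FPKM in Hoxb8 macrophages (log2 difference 3.52, SE 0.093). Cdc20 was at 16.8 ± 1.89 FPKM in BMDM and 0.343 ± 0.0416 FPKM in Hoxb8 macrophages (log2 difference 5.43, SE 0.16). Nos2, Ccl5, Hamp and Cdkn2a were lower in BMDM than in Hoxb8 macrophages. Nos2 was at 640.2 ± 48.6 FPKM in BMDM and 1981 ± 178 FPKM in Hoxb8 macrophages (log2 difference -1.79, SE 0.1). Ccl5 was at 2303 ± 499 FPKM in BMDM and 18900.3 ± 1643 FPKM in Hoxb8 macrophages (log2 difference -3.19, SE 0.14). Hamp was at 151 ± 9.35 FPKM in BMDM and 3828 ± 258 FPKM in Hoxb8 macrophages (log2 difference -4.82, SE 0.19). Among other inflammatory genes Saa3 was higher in BMDM, at 10592 ± 979.8 FPKM in BMDM and 3896 ± 393 FPKM in Hoxb8 macrophages (log2 difference 1.28, SE 0.081). Cxcl3 was also higher, at 6940.4 ± 320.1 FPKM in BMDM and 4645 ± 445 FPKM in Hoxb8 macrophages (log2 difference 0.42, SE 0.068). Il1b was lower in BMDM, at 4990.2 ± 50.4 FPKM against 6421 ± 181 FPKM in Hoxb8 macrophages (log2 difference -0.52, SE 0.064). The list of inflammatory cytokines and mediators summed to 12906 to 13111 FPKM in BMDM and 19689.9 to 21032 FPKM in Hoxb8 macrophages. The chemokine list summed to 21252 to 22501 FPKM in BMDM and 38472 to 40924 FPKM in Hoxb8 macrophages. The cell cycle inhibitor Cdkn2a was at 1.99 ± 0.633 FPKM in BMDM and 83.4 ± 4.09 FPKM in Hoxb8 macrophages (log2 difference -5.5, SE 0.11). Hoxb8 was at 0 FPKM in BMDM and 51.2 ± 2.04 FPKM in Hoxb8 macrophages.

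**Figure D5:**
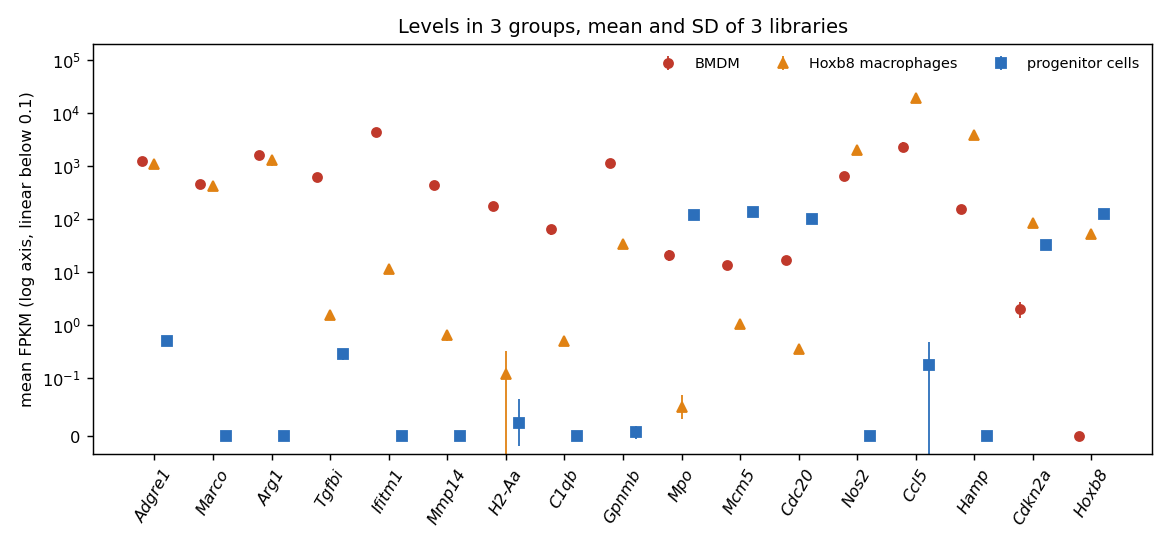
Mean FPKM ± SD (vertical, log axis that is linear below 0.1; n = 3 libraries each) of 17 genes in BMDM, Hoxb8 macrophages and progenitor cells. Adgre1, Marco and Arg1 are close in both macrophage groups, H2-Aa and C1qb are high in BMDM alone, and Hoxb8 is at 0 in BMDM alone.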

How the data were processed

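Messenger RNA of 15 mouse libraries was sequenced on a BGI platform after poly(A) selection, per the labels' protocols, and 6 of them, 3 BMDM and 3 progenitor cells, carry the comparison. The submitters' processing notes name HISAT2, Bowtie2, RSEM 1.3.1, DESeq2 1.4.5 and the build GRCm38.p6. The role of each tool, the gene models and the strandedness of the counting were not given in the sources used here. The estimated counts were deposited by the authors without normalisation, per the file headers, and 94.4% to 96.01% of them were whole per library. The authors also deposited FPKM and TPM values, named so in the file headers. TPM served only as an alternative, and 15 columns of averages were not used. Symbols that had become dates were put back by gene identifier for 25 genes, and 16978 of 17030 identifiers matched RefSeq, which gave coordinates.

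Counts were rounded and tested with edgeR 4.0.16 (quasi-likelihood, TMM, a mean per group over all 15 libraries, 10 residual degrees of freedom, two-sided, Benjamini-Hochberg) in R 4.3.3, for genes at 1 FPKM or more in 3 libraries. This kept 11793 genes and left out 5237. Genes with no count in progenitor cells entered through the macrophage groups and could not be called lower in BMDM. Genes with an adjusted p under 0.05 were called. SE is the log2 change divided by the root of F. It understates the counting error where a group held few counts, as progenitor cells did for Il1b (5 counts) and Mmp12 (4 counts). In simulated data (11793 genes) both groups were given the progenitor means, and only a small set of genes was then changed. There, 79.1% of genes changed 1.5-fold, 95.5% changed 2-fold and 100% changed 4-fold were recovered, and 10 of 11593 unchanged genes were called. The simulation did not hold the shift in make-up between BMDM and progenitor libraries, so these rates do not cover its effect. Alternatives used DESeq2 1.42.0, limma 3.58.1, other scalings, filters, the 6 libraries alone, a replicate block and leaving out each library. Plots used matplotlib 3.10.9 in Python 3.11.15. At these depths (17505928 to 19221685 counts), a count of 0 was taken as up to 3 per library. Intervals are 95% and cover counting error only.

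The rule for named genes took, among called genes without overlap and at 10 FPKM or more, the 12 that rose most and the 12 that fell most in log2(FPKM + 1). It added for each list its 4 most changed members and those not called, and a fixed set; not all of these are printed. Cd3d, Cd3e, Cd79a, Cxcl1, Cxcr2, E2f1, Hk3, Itga2b, Limch1, Ly6g, Mthfd2, Ncr1, Siglecf and Tpd52l1 lie outside that rule. They were chosen after their values were seen. The comparison, the gene lists, the motifs and the printed promoters were chosen with earlier results of these data known. Genes with close copies or an antisense partner can share reads in such counts. Values of some genes are not reported here.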

Additional observations from a re-analysis of the deposited data

How the results depend on the processing

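Calls against progenitor cells numbered 10294, and leaving out a library gave 10109 to 10262, with 5250 to 5479 higher and 4683 to 4874 lower; changes of 4-fold or more numbered 3203 to 3289, and calls against Hoxb8 macrophages 7946 to 8206. With log2(TPM + 1), 3454 genes were called higher and 7271 lower, past 1.5 times the counts given above; the cause was not tested. Ccnd3 turned to a log2 change of -0.36 with library totals, -0.25 with either FPKM pseudocount, -0.37 with TPM and -0.12 after quantile normalisation. E2f1 turned to -0.23, -0.21 and -0.22 (log2(FPKM + 0.1)) and -0.34 with TPM, and Gapdh to -1.32 after quantile normalisation. After quantile normalisation Ccnd1 was not called (0.16). Genes that were not called lay near 0, and their sign moved with the libraries left out: Calr -0.14 to 0.027, Cxcr4 -0.061 to 0.033 (0.021 at a minimum of 5 FPKM), Gaa -0.10 to 0.0079, Hk1 -0.15 to 0.00053 and Tgfb1 -0.16 to 0.057. No pairing by replicate number was seen: deviations of same-numbered libraries correlated at -0.04, -0.0019 and 0.023. With 3 libraries per group such values cannot tell whether the numbers mark shared preparations. The replicate block, fitted on the 6 libraries alone, gave 10066 calls, 5211 higher and 4855 lower. The 6 libraries alone without the block gave 10188 calls. In windows from 100 bases before to 50 after the start, the E2F share of S phase genes was 14.3% and that of all genes 1.87%, and the other list shares printed above stayed within their intervals. Depth limits values near 0.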

Other observations

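Gene families were also counted, chosen after their values were seen, and several have members in the lists above. All 14 tested C-type lectin genes (Clec) and all 11 matrix metalloprotease genes (Mmp) rose in BMDM, with all 5 Ifitm genes and 7 of 8 in each of the Ms4a and Cd300 families. Syntaxins (Stx), which guide membrane fusion, rose for 11 of 13 tested genes and fell for 0, but with library totals 7 rose and 2 fell, and with log2(TPM + 1) 7 rose and 4 fell. After quantile normalisation 10 Mmp genes rose and 1 fell. In the other direction lay genes of RNA and protein production: 18 of 19 nuclear pore genes (Nup) and 9 of 10 SR splicing factors (Srsf) fell, with a median log2 change of -1.20 and -1.72. RNA polymerase subunits (Polr) fell for 24 of 28, mitochondrial ribosomal proteins for 36 of 49 (Mrpl) and 24 of 29 (Mrps), and the chaperonin genes (Cct) for 7 of 7. Zinc finger genes named Zfp fell for 191 of 299 and rose for 64, against 245 and 25 with log2(TPM + 1). Over all tested genes, 46.6% rose and 40.7% fell.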
